A study of Mus musculus with 2 samples.

Results

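Hdac1 islands without Hdac2 inside genes are stretches of the mouse genome where chromatin immunoprecipitation with an antibody against the histone deacetylase Hdac1 gave more reads than background, the antibody against Hdac2 gave no called stretch, and the sequence lay in the body of a gene away from its ends. They were chosen from the authors' island lists as Hdac1 islands on chromosomes 1 to 19 that were narrower than 5 kb, shared no base with an Hdac2 island, and overlapped the span of a protein-coding gene but not the 1 kb on either side of any such gene's first or last base. The rule kept 6174 of the 29695 Hdac1 islands on these chromosomes (20.8%) and of the 30182 in the whole list. They are called Hdac1-only inner islands below, and the 2824 Hdac1 islands of the same position and width that did share sequence with Hdac2 are called shared inner islands. Both were picked by their calls, so their widths, values and their lack of Hdac2 are given as descriptions with no test.

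The cells were nephron progenitors, the stem-like cells of the fetal kidney from which nephron epithelium forms, isolated from wild-type E16.5 mouse kidneys and cultured before crosslinking. There was 1 library with 0.5 µg of Hdac1 antibody and 1 with 1 µg of Hdac2 antibody, each from the same number of cells, and neither had a replicate. Antibody and amount therefore changed together, and control libraries were not analysed here. All differences below therefore describe these 2 libraries, no p is given, and 95% Wilson intervals of shares cover counting error only. For each island the files give a position and 1 significance value (lower is stronger; whether p or q is not stated). The read depth is unknown. Hdac1 was at an end of 62.6% of all autosomal protein-coding genes. Of the markers of the labelled cell type, all 9 autosomal progenitor markers looked at (Six2, Eya1, Sall1, Osr1, Wt1, Meox1, Gdnf, Crym and Itga8) had an Hdac1 island at a gene end, as did 6 of 6 stromal, 4 of 6 ureteric bud and 1 of 6 endothelial and blood markers. Stromal markers thus had such islands as often as progenitor markers, so these counts do not tell those cells apart. The islands do not measure expression, and the share of other cells was not tested.

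Hdac1 and Hdac2 are closely related class I histone deacetylases. They remove acetyl groups from histone tails. Both work as the enzyme of larger assemblies (CoREST, NuRD and Sin3), and most cells use them side by side. The complexes are found at repressed genes and also at the promoters and enhancers of active ones, where they limit acetylation. In mouse nephron progenitors the pair is needed for nephrons to form. A gene body can hold further transcription starts of the same gene, starts of noncoding RNAs and enhancers, so an island inside a gene need not concern the gene's outermost promoter.

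Most of the 15 strongest Hdac1-only inner islands lay over such further starts. RefSeq lists several transcription starts for many genes, and a gene's span runs to the outermost of them. An inner start here is a listed start of a protein-coding or long noncoding gene that lies inside a protein-coding gene and more than 1 kb from every protein-coding gene end. Of the 15 strongest islands, 11 covered an inner start of their own gene. The windows around the starts in the 6 strongest of these 11 islands are shown first. They were taken by strength and serve to show CG content, which set such starts apart as a group from inner starts without an Hdac1 island. Each runs from 250 bases before to 50 bases after the start, 5′ to 3′ on the gene's strand, and comes from RefSeq on build GRCm38.p6, the assembly called mm10. Capitals mark CG dinucleotides.
Sgo2a: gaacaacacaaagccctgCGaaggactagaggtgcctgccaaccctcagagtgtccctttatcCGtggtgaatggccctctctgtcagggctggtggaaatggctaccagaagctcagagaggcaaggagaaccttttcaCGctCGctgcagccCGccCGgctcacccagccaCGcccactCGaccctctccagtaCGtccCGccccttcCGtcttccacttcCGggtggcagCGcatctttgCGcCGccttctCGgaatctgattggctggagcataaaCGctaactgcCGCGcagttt
Cenpj: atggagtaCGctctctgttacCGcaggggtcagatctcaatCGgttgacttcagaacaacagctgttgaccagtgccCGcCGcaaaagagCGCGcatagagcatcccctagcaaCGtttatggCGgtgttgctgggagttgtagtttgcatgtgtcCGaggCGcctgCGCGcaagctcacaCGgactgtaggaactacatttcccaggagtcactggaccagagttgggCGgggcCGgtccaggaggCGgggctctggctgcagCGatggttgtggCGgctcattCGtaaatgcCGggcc
Oscp1: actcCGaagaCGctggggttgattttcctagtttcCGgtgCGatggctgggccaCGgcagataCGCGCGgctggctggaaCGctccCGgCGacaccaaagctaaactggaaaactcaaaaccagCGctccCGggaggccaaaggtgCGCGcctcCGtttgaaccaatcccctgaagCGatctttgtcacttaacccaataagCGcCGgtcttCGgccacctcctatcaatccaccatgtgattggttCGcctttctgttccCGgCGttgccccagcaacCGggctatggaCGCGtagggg
Mtfr2: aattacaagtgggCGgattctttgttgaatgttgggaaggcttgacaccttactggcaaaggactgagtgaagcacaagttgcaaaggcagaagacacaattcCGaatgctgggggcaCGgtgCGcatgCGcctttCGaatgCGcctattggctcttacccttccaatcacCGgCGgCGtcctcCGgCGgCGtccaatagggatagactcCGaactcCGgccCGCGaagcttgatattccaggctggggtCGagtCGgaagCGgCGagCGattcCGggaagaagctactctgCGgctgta
Csk: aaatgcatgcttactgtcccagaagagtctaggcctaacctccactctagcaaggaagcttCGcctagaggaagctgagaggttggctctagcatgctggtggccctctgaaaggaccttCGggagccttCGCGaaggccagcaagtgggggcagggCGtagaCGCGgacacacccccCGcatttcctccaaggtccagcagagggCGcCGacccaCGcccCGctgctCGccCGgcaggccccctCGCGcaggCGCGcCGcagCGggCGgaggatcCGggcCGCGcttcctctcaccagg
Gramd1a: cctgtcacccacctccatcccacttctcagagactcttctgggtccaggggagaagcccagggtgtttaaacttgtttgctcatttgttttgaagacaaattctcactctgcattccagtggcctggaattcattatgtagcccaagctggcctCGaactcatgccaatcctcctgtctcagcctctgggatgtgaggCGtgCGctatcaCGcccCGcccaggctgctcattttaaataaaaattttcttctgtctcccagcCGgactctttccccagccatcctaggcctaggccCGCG

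The Sgo2a window, at chr1:57995724-57996023 on the plus strand, held 19 CG dinucleotides. The Cenpj window at chr14:56571797-56572096 on the minus strand held 21, the Oscp1 window at chr4:126058315-126058614 on the plus strand 26, and the Mtfr2 window at chr10:20347569-20347868 on the plus strand 24. The Csk window at chr9:57645604-57645903 on the minus strand held 24. The Gramd1a window at chr7:31151122-31151421 on the minus strand was the poorest of the 6, with 8. The first 5 windows ranged from 0.721 to 1.02 times the CG count that their C and G content would give, a ratio called observed over expected CpG, and Gramd1a stood at 0.399. The GC box, GGGCGG on either strand, was present in all of these windows except that of Oscp1.

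For comparison, the next windows belong to inner starts with no Hdac1 island, in the 2 genes with most Hdac1-only inner islands among those with such a start. Thsd4 (chr9:60141171-60141470, minus strand) encodes a thrombospondin-repeat protein of the matrix, and Grip1 (chr10:119819139-119819438, plus strand) encodes a scaffold protein with PDZ domains.
Thsd4: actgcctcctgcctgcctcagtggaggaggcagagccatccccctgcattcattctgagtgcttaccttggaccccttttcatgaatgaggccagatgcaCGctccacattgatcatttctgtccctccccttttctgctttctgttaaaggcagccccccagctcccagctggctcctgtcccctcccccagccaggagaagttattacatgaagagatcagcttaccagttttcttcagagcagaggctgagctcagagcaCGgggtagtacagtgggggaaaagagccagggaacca
Grip1: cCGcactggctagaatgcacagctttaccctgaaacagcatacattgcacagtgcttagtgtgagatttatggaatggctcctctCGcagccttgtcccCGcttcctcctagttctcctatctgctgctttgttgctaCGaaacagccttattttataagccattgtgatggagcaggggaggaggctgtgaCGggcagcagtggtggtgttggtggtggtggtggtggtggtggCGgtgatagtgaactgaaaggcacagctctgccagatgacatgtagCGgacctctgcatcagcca

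These windows held 2 and 7 CG dinucleotides, with observed over expected CpG of 0.0896 and 0.338, and neither had a GC box. A further window belongs to the start of Airn, the noncoding RNA that runs across part of Igf2r and is known for silencing that imprinted gene on the paternal chromosome. It is shown because the 4.8 kb island over it was among the widest Hdac1-only inner islands.
Airn: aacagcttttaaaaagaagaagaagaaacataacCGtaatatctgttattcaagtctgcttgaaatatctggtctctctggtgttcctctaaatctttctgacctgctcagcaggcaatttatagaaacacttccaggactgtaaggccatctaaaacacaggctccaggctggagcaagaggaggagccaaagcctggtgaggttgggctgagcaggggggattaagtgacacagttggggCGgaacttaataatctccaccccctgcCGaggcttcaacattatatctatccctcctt

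The Airn window (chr17:12741061-12741360, plus strand) held 3 CG dinucleotides and had a GC box. The island over it ran from 12739601 to 12744400 on chromosome 17, had a value of 1.53e-35, and left 4.8 kb to the nearest Hdac2 island. The gene Igf2r held 4 Hdac1-only inner islands in all.

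The strongest island of all lay in Sgo2a, which encodes shugoshin 2, a protector of centromeric cohesin. It was 2.2 kb wide, from 57995401 to 57997600 on chromosome 1, with a value of 1.31e-237, and its nearest gene end was 10.1 kb away. The third lay in Cenpj, a gene for centriole assembly (2.2 kb, 1.58e-168, chromosome 14 from 56570201). The fifteenth lay in Sgo1, which encodes the other shugoshin (1.6 kb, 4.42e-93, chromosome 17 from 53688401), 1.33 kb from the gene's end. All 3 covered an inner start of their own gene. Sgo2a and Sgo1 had no island of either antibody at an end, while Cenpj had Hdac1 there.

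Idh2, the mitochondrial isocitrate dehydrogenase (1.76e-101), Mtfr2, a regulator of mitochondrial fission (1.57e-118), and Csk, the kinase that inhibits Src family kinases (8.77e-115), had their islands over inner starts and no island of either antibody at an end. The same held for Oscp1 (8.44e-135), Ccdc15 (5.66e-101) and Atad2b, a bromodomain gene (2.00e-99). Gramd1a, which carries cholesterol between membranes (1.17e-109), and Arhgef7, an exchange factor for Rac (7.23e-97), had inner starts under the island and Hdac1 at an end, and Arhgef7 also had Hdac2 there. The 4 islands over no listed inner start included those in Usp42 (1.55e-175), Nfkbiz, an atypical inhibitor of NF-κB (1.25e-122), and Usp54 (3.75e-103). Usp42 and Nfkbiz had no entry in the table of starts used here, so whether a start lies under them was not tested. In 10 of these 15 genes neither antibody had an island at an end, as in 814 of the 3403 genes with an Hdac1-only inner island (23.9%) and 7509 of all 20661 genes. The rule leaves out islands that reach a gene end, so an island there was always a further one in genes of the class.

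Across the whole class the share of islands over an inner start was highest among the strong islands. Chromosome 18 has no starts in the table used, which leaves 5950 Hdac1-only inner islands. Of these, 586 (9.85%, interval 9.12 to 10.6%) covered an inner start, 481 of them a start of their own gene and 105 a start listed for another gene. Some of the 105 lay in genes without an entry in the table of starts, where a start of the gene itself could not be seen. In the strongest decile the share was 40.9% (interval 37 to 44.8%), in the second 15.5%, in the fifth 5.84% and in the weakest 2.53%. Islands over a start of their own gene had a median value of 1.43e-19, those over a start listed for another gene 9.94e-12, and those over no start 5.30e-09. Their widths were alike, with medians of 1.8, 2.0 and 1.6 kb. Among the 4833 islands whose gene had an entry in the table of starts, the share was 11.5% (interval 10.7 to 12.5%).

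Shared inner islands covered an inner start more often in all, in 489 of 2706 cases (18.1%, interval 16.7 to 19.6%). They were also stronger, and among the strongest islands of like Hdac1 value the order turned round. In the strongest decile of all Hdac1 islands inside genes, 61.4% of the Hdac1-only islands (interval 54.7 to 67.8%) and 51.5% of the shared ones (47.6 to 55.3%) covered an inner start, and these intervals just overlapped. The second decile had 31.1% (26.5 to 36.1%) of Hdac1-only and 15.1% (12.3 to 18.5%) of shared islands. In the third the shares were 16.2% (13.2 to 19.7%) of Hdac1-only and 7.47% (5.22 to 10.6%) of shared islands. In deciles 2 and 3 the intervals did not overlap, and from the fourth on they did. The decile was set by the value alone, and width was not matched.

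**Figure D1:**
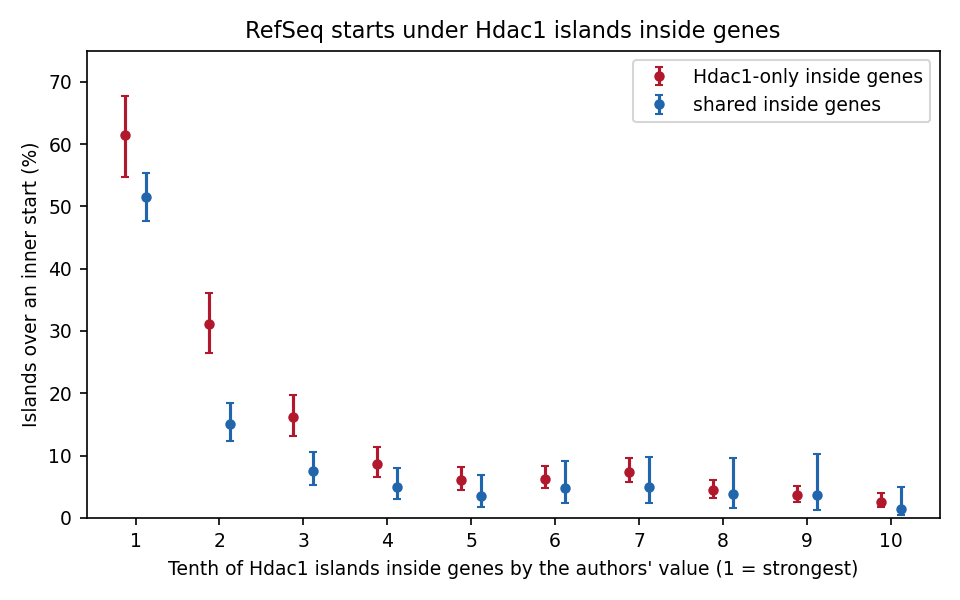
Share of Hdac1 islands inside genes that cover an inner start, for Hdac1-only (red) and shared (blue) islands, by decile of the authors' value, with 1 the strongest. Points are percentages and bars are 95% Wilson intervals. Hdac1-only islands lie above shared ones in deciles 1 to 3, with 61.4% and 51.5% in the first.

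Seen from the starts, 710 of the 6458 inner starts (11%) lay in an Hdac1-only inner island, 674 in a shared inner island, 978 in another Hdac1 island and 4096 in none. Any Hdac1 island covered 36.6%. Starts of protein-coding genes were under an Hdac1-only inner island in 554 of 3708 cases (14.9%, interval 13.8 to 16.1%), and starts of long noncoding RNAs in 156 of 2750 (5.67%, interval 4.87 to 6.6%). Sequence within 1 kb of an inner start, free of Hdac2 islands and gene ends, held 63.2 Hdac1-only inner islands per Mb by their centres, against 6.08 per Mb in the rest of the open gene interior. Open interior means the sequence inside genes where the rule could have placed an island, outside gene ends and Hdac2 islands.

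The inner starts under Hdac1 islands were rich in CG. Observed over expected CpG had a median of 0.586 (interquartile range 0.374 to 0.791) for the 710 starts in Hdac1-only inner islands and 0.744 (0.515 to 0.905) for the 674 in shared ones. Starts without an Hdac1 island had a median of 0.226 (0.131 to 0.339). In the same order the median GC content was 57.7%, 64% and 48.7%. The lower quartile of starts in Hdac1-only inner islands lay above the upper quartile of starts without an island, and the ranges of the 2 island classes overlapped widely. Starts of noncoding RNAs in Hdac1-only inner islands were lower, at a median of 0.454, than those of protein-coding genes at 0.621. GC content can affect amplification and mapping of reads, and its part in these values was not tested.

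**Figure D2:**
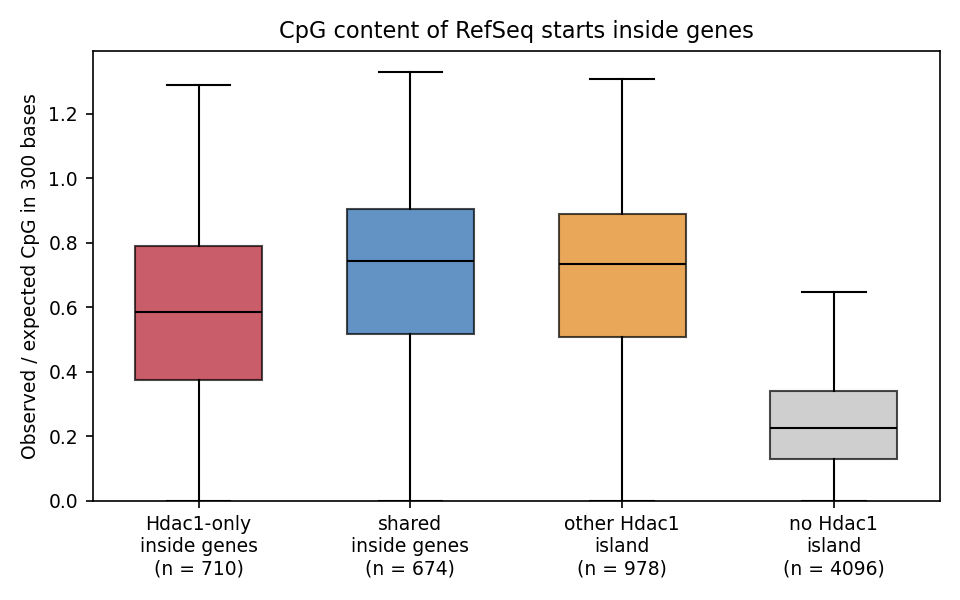
Observed over expected CpG in the 300-base windows of RefSeq starts inside genes, by the Hdac1 island that covers them. Boxes give the median and quartiles, whiskers reach to 1.5 times the interquartile range, and points beyond are not drawn. The medians are 0.586 for Hdac1-only inner islands, 0.744 for shared inner islands, 0.734 for other Hdac1 islands and 0.226 for starts without an island.

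Short promoter motifs were counted in the same windows. GGGCGG, the GC box, was found on either strand in 365 of the 710 windows in Hdac1-only inner islands (51.4%, interval 47.7 to 55.1%), in 63.8% of those in shared inner islands, in 11.4% of those without an Hdac1 island and in 36% of all 31396 windows in the table on these chromosomes. TGACGTCA, the cAMP response element, was in 21 of 710 (2.96%, interval 1.94 to 4.48%), against 1.19% (0.603 to 2.32%), 0.659% and 1.83% in the same order. The intervals of the 2 island classes overlapped. CACGTG, an E-box, stood at 7.04%, 6.82%, 4.35% and 7.14% in the same order. Of the motifs without CG, TATAAA, the TATA box, was in 7.75% of windows in Hdac1-only inner islands, 4.75% in shared ones, 15.8% without an island and 13.6% of all. CCAAT was in 30.3%, 32.6%, 34.4% and 37.3%, and TTTGAA, an element of cell cycle promoters, in 13.2%, 9.5%, 20.3% and 17.6%. Both strands were searched and overlaps between motifs were allowed. A match describes the letters of the window and is not a binding site.

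At 468 protein-coding genes an Hdac1-only inner island covered the gene's own inner start. The outermost 5′ end had no Hdac1 island at 226 of these genes (48.3%). Without regard to inner starts, this was so for 25.9% of genes with an Hdac1-only inner island and 39.2% of all 16456 genes with a known strand. The rule bears on these shares, because islands that reach the 1 kb around a gene end are left out. Hdac1 at the outermost end of a gene with an inner island was thus always a further island. The share of all genes carries no such condition. Neither end had Hdac2 at 334 of the 468 (71.4%). Most of all 20661 genes likewise lacked Hdac2 at both ends. These were 6246 with Hdac1 alone at an end and 7509 with neither antibody, while 6906 (33.4%) had Hdac2 at an end.

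Starts of noncoding RNAs under the islands included those below, which are examples and not the strongest in order. An island in Zfp800 (1.86e-64), for instance, was stronger than the one given for Shank3. In Axin1, the scaffold of the β-catenin destruction complex, a 2.6 kb island (8.02e-88) covered the start of the noncoding Gm46600. In Shank3, a synaptic scaffold gene, one of 1.0 kb (2.38e-62) covered the start of Gm15609. Plod2, a collagen lysyl hydroxylase gene, had one of 1.8 kb (1.86e-58) over the start of B430319G15Rik. At Notch2 and Bmp7, islands of 5.42e-11 and 1.53e-10 covered the starts of Gm40103 and Gm40010. Axin1 and Bmp7 have no entry in the table of starts, so whether their islands also cover a start of the gene itself was not tested. Islands that overlapped a long noncoding gene anywhere numbered 523 (8.47%). The counts do not tell the host gene from the noncoding one.

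Some microRNA genes lay under the islands. Of 1136 microRNA genes on these chromosomes 12 (1.06%) lay in an Hdac1-only inner island and 174 in any Hdac1 island. The class covered 10.9 Mb in all, and whether 1.06% is low or high for that length was not tested. The strongest of the 12 was over Mir330 in the microtubule-binding protein gene Eml2 (3.8 kb, 3.86e-41), where the island also covered an inner start of Eml2. The best known besides was Mir148b, singled out after its value was seen, in the coatomer gene Copz1. That island (2.0 kb, 1.19e-06) ended at 103285200 on chromosome 15, inside the hairpin, which runs from 103285125 to 103285221. It ended within miR-148b-3p, which lies at chr15:103285185-103285206 and is not shown. The mature microRNAs that lie wholly inside these islands are shown from RefSeq with the seed, bases 2 to 8, in capitals. No seed is shared among them. In miR-330 they lie at chr7:19181486-19181507 (5p) and chr7:19181525-19181547 (3p) on the plus strand, and miR-148b-5p lies at chr15:103285148-103285171 on the plus strand.
mmu-miR-330-5p: uCUCUGGGccugugucuuaggc
mmu-miR-330-3p: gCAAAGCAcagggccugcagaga
mmu-miR-148b-5p: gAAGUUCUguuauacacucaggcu

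Most Hdac1-only inner islands, however, covered no listed start. Over the whole class the median width was 1.6 kb (interquartile range 1.2 to 2.2 kb), and together they covered 10.9 Mb. The authors' value had a median of 2.51e-09, from 1.30e-13 at the lower to 1.28e-06 at the upper quartile. Shared inner islands had a median value of 3.37e-18 and a median width of 2.2 kb. Hdac1-only islands at gene ends were stronger still, with 4.99e-28, while Hdac1-only islands between genes were like the inner ones, with 4.32e-09 and 1.6 kb. Of all Hdac1 islands inside genes under 5 kb, 68.6% (interval 67.6 to 69.6%) lacked Hdac2. This share was 24.2% in the strongest decile, 74% in the fifth, 90.3% in the ninth and 83.9% in the weakest. Keeping the upper 50% of the Hdac1 list by value left 1003 of the 6174 islands, in 927 genes.

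**Figure D3:**
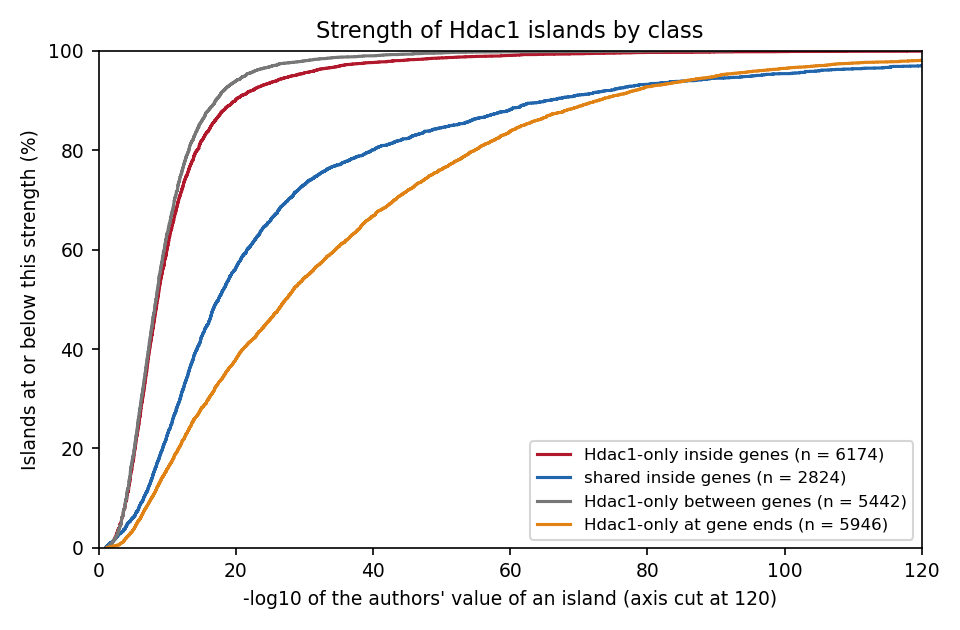
Cumulative share of Hdac1 islands by −log10 of the authors' value, for Hdac1-only islands inside genes (red), shared islands inside genes (blue), Hdac1-only islands between genes (grey) and Hdac1-only islands at gene ends (orange). Larger values are stronger, and the axis ends at 120. The red and grey curves run together, with medians of 2.51e-09 and 4.32e-09.

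Near the limits of the rule, the 15 widest Hdac1-only inner islands measured 4.8 kb, among them those in Igf2r, Aopep and Prrc2b. Another 63 islands met every other condition but were 5 to 10 kb wide, and 8 of them measured 5.0 kb. At 5 islands an Hdac2 island lay directly beside the Hdac1 island with no base between them, as in Hmga2, the fetal chromatin protein gene (4.8 kb, 2.48e-20), Elmo2 and Tekt5. On the other side, 12 shared inner islands overlapped Hdac2 by 0.2 kb. Hdac2 lay within 1 kb of 114 Hdac1-only inner islands (1.85%) and within 5 kb of 897 (14.5%). It was more than 100 kb away from 769 (12.5%), and the median gap was 26.0 kb. The islands nearest to a gene end, in Fth1, the ferritin heavy chain gene (1.19e-41), Prss56 and Tslp, were 1.0 kb from it, and 278 islands lay within 2 kb.

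Islands lay all along the genes. Their centres had a median position of 46.9% of the way from the 5′ end (interquartile range 24.5 to 71.1%) among genes with a known strand. Between 5 and 10 kb from the 5′ end there were 9.27 islands per Mb of open interior, against 6.18 at the same distance from the 3′ end. Between 2 and 5 kb the values were 8.18 and 7.04, between 20 and 50 kb 7.25 and 7.4, between 50 and 100 kb 6.9 and 7.58, between 100 and 200 kb 6.54 and 7.82, and beyond 200 kb 4.8 and 4.84. The nearest gene end was at a median distance of 25.1 kb over all islands and 10.2 kb in the strongest decile.

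In all, 3403 of 20661 autosomal protein-coding genes (16.47%, interval 16 to 17%) held at least 1 Hdac1-only inner island. Of these, 2170 (63.8%) held 1 and 209 held 5 or more. The 209 genes together had 1504 islands (24.4%). Genes with an island had a median length of 73.5 kb, against 13.5 kb for genes without. The share with an island was 1.58% of genes under 10 kb, 11% from 10 to 30 kb, 25.7% from 30 to 100 kb, 55.1% from 100 to 300 kb and 70.9% over 300 kb. Per Mb of open interior, the same length classes had 7.39, 7.58, 7.08, 7.8 and 4.9 islands. The number per Mb thus differed little below 300 kb and was lower in the longest genes.

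Genes with both antibodies at an end were denser in Hdac1-only inner islands. There were 8.75 per Mb of open interior in the 6698 genes with both antibodies at an end, 5.38 in the 6246 with Hdac1 alone and 5.04 in the 7509 with neither. Within the 100 to 300 kb class the values were 10.1, 5.91 and 5.09, and over 300 kb they were 7.72, 3.35 and 3.32. Under 10 kb the order differed, with 5.92, 9.34 and 6.74. It also differed at 10 to 30 kb, with 8.38, 6.88 and 7.58. The 208 genes with Hdac2 alone at an end had 6.02 per Mb over all lengths. Hdac1 was at an end of 2566 of the 3403 genes with an island (75.4%, interval 73.9 to 76.8%), against 62.6% of all genes. For Hdac2 the figures were 1602 (47.1%, interval 45.4 to 48.8%) and 33.4%. Genes with an island were longer, and the difference varied with the length class. Under 10 kb Hdac1 was at an end of 61.2% of genes with an island and 46.2% of genes without, at 10 to 30 kb of 68.2% and 68.2%, at 30 to 100 kb of 76.3% and 73.1%, at 100 to 300 kb of 81.8% and 70.8%, and over 300 kb of 72.9% and 65.2%. For Hdac2 the order turned round under 10 kb, with 21.6% of genes with an island and 24.4% of genes without. The other classes had 35.6% and 32.3%, 47% and 39.5%, 58.1% and 38.8%, and 46.9% and 27.7%, from 10 to 30 kb up to over 300 kb. Of the genes with an inner island, 814 (23.9%) had no island of either antibody at an end.

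The genes with most Hdac1-only inner islands were long. Auts2, a gene of neural development on chromosome 5 (131437333 to 132543220, 1105.9 kb), held 23, with values from 1.21e-27 to 0.00234 and widths of 0.6 to 4.2 kb. Wwox, which encodes a WW domain oxidoreductase, held 20, the strongest at 1.82e-52. Gse1, whose product is found with the CoREST deacetylase complex, held 17 in 352.9 kb, or 52.4 per Mb of open interior, and Arhgap26 also held 17. Msi2, an RNA-binding regulator of stem cells, Camta1, a calmodulin-binding transcription factor, and Tshz2, a teashirt zinc finger gene, held 15 each. Maml3, a coactivator of Notch, and the RNA-binding gene Rbms3 held 14 each, and Rad51b, a recombination gene, held 13. None of the islands in these 10 genes covered a listed inner start, although Auts2, Wwox and Arhgap26 have no entry in the table of starts. Of the 10, 9 had Hdac1 at an end, all but Rbms3, and 8 had Hdac2, all but Rbms3 and Rad51b. Each also held between 5 and 17 shared inner islands.

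**Figure D4:**
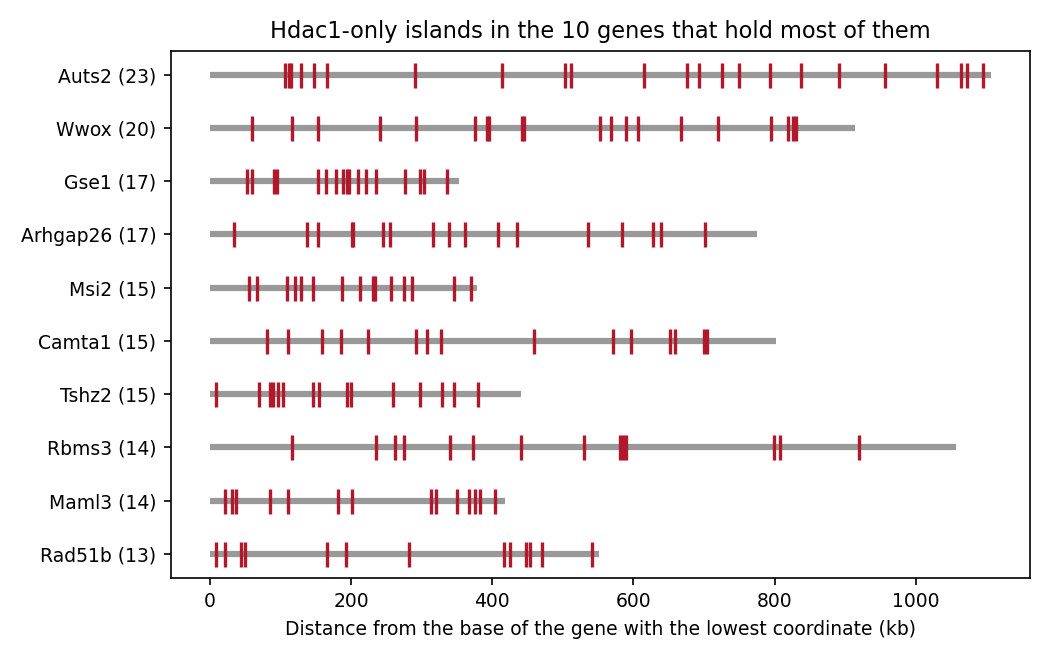
Position of each Hdac1-only inner island (red ticks, at its centre) along the 10 genes that hold most of them (grey bars, drawn from the base with the lowest coordinate, in kb). Numbers in brackets are islands per gene, from 23 in Auts2 to 13 in Rad51b. The islands are scattered along each gene with some close groups.

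Among genes with 5 or more islands, those with most per Mb of open interior were shorter. Ccdc85c led with 8 islands in 74.3 kb (119.0 per Mb). Tcf7l1, a repressor in the Wnt pathway, had 11 in 162.7 kb (83.1 per Mb), Smad6, an inhibitor of Bmp signalling, 5 in 69.0 kb (82.6), and Sufu, an inhibitor of Hedgehog signalling, 6 in 91.9 kb (71.1). Phc2, a Polycomb gene, had 7 (74.9), the integrin gene Itgb5 7 (67.8), the transcription factor gene Nfix 6 (67.7) and Spred2, an inhibitor of Ras and MAP kinase signalling, 6 (65.6). These genes were picked for their density after the values were seen.

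Genes of the Wnt pathway, which holds progenitors and later drives them into epithelium, had Hdac1-only inner islands at 25 of 53 (47.2%, interval 34.4 to 60.3%), beside 16.47% of all genes. Their density was 17.8 per Mb of open interior, beside 6.66 over all genes. Among ligands, Wnt9b, the signal of the ureteric bud, had 1 island over its own inner start (5.78e-27), and Wnt5b had 4. Among receptors, Lrp5 had 1 (6.69e-21), Lrp6 5 and the coreceptors Ror1 and Ror2 5 and 6. Of the inhibitors, Axin1 had the island given above, and Axin2 had 1 of 3.0 kb (6.57e-25), 1.2 kb from an Hdac2 island. The transcription factor genes Tcf7l1, Tcf7l2, Lef1 and Tcf7 had 11, 3, 2 and 1. Prickle2, a planar polarity gene, had 5, the strongest at 2.02e-21.

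Bmp, TGF-β and Smad genes had islands at 19 of 37 (51.4%, 16.4 per Mb). Among ligands, Tgfb2 had 2, the strongest being 0.4 kb wide with 2.59e-24, and Bmp7, which keeps progenitors alive and dividing, had 2. The receptor gene Bmpr1a had 1 (1.33e-19). Of the signal carriers and inhibitors, Smad3 had 4 (1.52e-23), Smad6 5, Smurf1 4 (2.37e-21) and the corepressor gene Ski 2 (4.83e-24). Ltbp1, a binding protein of latent TGF-β, had 10. Fgf and receptor tyrosine kinase genes had islands at 20 of 43 (46.5%, 10 per Mb), with Sos2 (7.05e-32), Spred2 (3.05e-22), Grb2 (8.00e-17), Pik3r1 (1.15e-13) and Fgf2 (4.76e-13) having the strongest and Igf1r 7 islands. The Grb2 island covered an inner start of Grb2.

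Hippo pathway genes had islands at 15 of 24 (62.5%, 14.1 per Mb). Amotl1, a scaffold that holds Yap, had the strongest, of 4.0 kb with 1.03e-76, over an inner start of its own and with no island of either antibody at an end. Amotl2 (9.34e-27), Fat3 (2.38e-17), the transcription factor gene Tead1 (1.23e-16) and Dchs1 (2.29e-16) followed, and Yap1 had 1. Notch pathway genes had islands at 7 of 26 (26.9%, 18.6 per Mb). Of the 32 islands in them 14 were in Maml3. Maml2 had 6 (4.49e-16), Notch3 1 (4.28e-20), Dll3 1 (2.03e-12) and Notch2 5.

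Progenitor regulators had islands at 9 of 28 (32.1%, interval 17.9 to 50.7%, 8.68 per Mb). The strongest were in Ncam1, an adhesion gene (1.30e-21), and Itga8, the integrin of the progenitors' contact with the ureteric bud (1.38e-16). Wt1, the Wilms tumour gene, had 1 of 1.8 kb (4.10e-09) at 14.7 kb from its nearest end, and Eya4 and Dach1 had 1.51e-08 and 2.49e-08. Pax2, Meox1, Npnt and Eya1 had 1 each, between 4.47e-05 and 5.15e-08. Genes of committed cells and the renal vesicle had islands at 8 of 30 (26.7%, 16.8 per Mb), led by Cdh6 (1.19e-22), the cadherin of early tubules, which had no island of either antibody at an end, and Irx1 (3.00e-21). The lists share genes, so this density is not separate from theirs. Of the 16 islands in this list, Notch2 held 5, Cdh6, Bmp7, Lef1 and Cdh1 2 each and Notch1 1, and all of these genes are also counted in another list. Hnf4a, a regulator of proximal tubule, had 1 of 0.4 kb (1.13e-11).

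Podocyte and tubule genes had islands at 9 of 21 (42.9%, 4.18 per Mb). Magi2, a podocyte scaffold gene, had the strongest (2.2 kb, 4.05e-44), over an inner start of its own and that of the RNA 4921504A21Rik. The island's centre lay 7.91 kb from the outermost 5′ end of Magi2, and the gene had no island of either antibody at an end. Those in Ptprq (2.05e-12), Ptpro (6.67e-10), Plce1 (6.01e-09) and Cubn (6.11e-09) were far weaker. Stromal genes had islands at 9 of 24 (37.5%, 17.3 per Mb), all of them transcription factor genes, among them Nfia (9 islands, 1.66e-23), Nfix (6, 3.94e-20), Meis2 (5, 4.18e-17), Meis1 (7, 2.21e-16), Ebf1, Ebf2, Nfib and Zeb2. Ureteric bud genes had islands at 6 of 25 (24%, 8.47 per Mb), led by Wnt9b, with Grhl2, Cdh1, Gfra1 and Etv5 between 4.91e-06 and 1.11e-06. Endothelial and blood genes had them at 8 of 19 (42.1%, 7.12 per Mb), led by Tal1 (4.28e-20), Erg (5.77e-15) and Ptprb (1.64e-14).

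Genes of guidance and adhesion and of neurons, which are long, had islands at many genes but at a density near or below that of all genes. Guidance and sorting receptors had them at 23 of 34 (67.6%, 7.11 per Mb), with Plxna1 (3.63e-18), Plxna4 (4.18e-18) and Robo1 (5 islands, 5.14e-17) leading and Efna5 holding 11. Cadherin, integrin and matrix genes had them at 29 of 49 (59.2%, 6.53 per Mb), led by Cdh13 (1.93e-34), Itgb5 (7 islands, 5.13e-27) and Cdh6. Neuronal synapse and channel genes, with a median length of 817.8 kb, had them at 33 of 51 (64.7%, 2.13 per Mb), led by Cacna1a (2.13e-39), Rbfox3 (5.73e-39) and Kcnip4 (6.91e-30).

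The Hdac1 and Hdac2 complexes had islands at 9 of 39 (23.1%, interval 12.6 to 38.3%, 7.95 per Mb). Among these were Mideas, the MiDAC scaffold gene (3 islands, 6.28e-21), the NuRD genes Mbd2 (1.26e-17) and Gatad2a (3.53e-13), Trerf1, Kdm1a, Arid4a and Arid4b. Hdac1 was at an end of 38 of these 39 genes. Other chromatin regulators had islands at 21 of 58 (36.2%, 8.98 per Mb). The strongest were in the class IIa deacetylase genes Hdac9 (1.0 kb, 6.28e-50) and Hdac7 (1.6 kb, 2.36e-30), neither of which had an island of either antibody at an end, and then in Arid1a (1.29e-25), Chd8 (1.86e-25) and Ezh1 (2.29e-22). Cell cycle and replication genes had islands at 2 of 41 (4.88%, interval 1.35 to 16.1%, 3.93 per Mb), Rbl1 (9.99e-19) and E2f3 (5.09e-13), though Hdac1 was at an end of 40. None of 45 cytosolic ribosomal protein genes had one (an upper bound of 7.87%), with 0.0756 Mb of open interior between them, and Hdac1 was at an end of all 45.

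**Figure D5:**
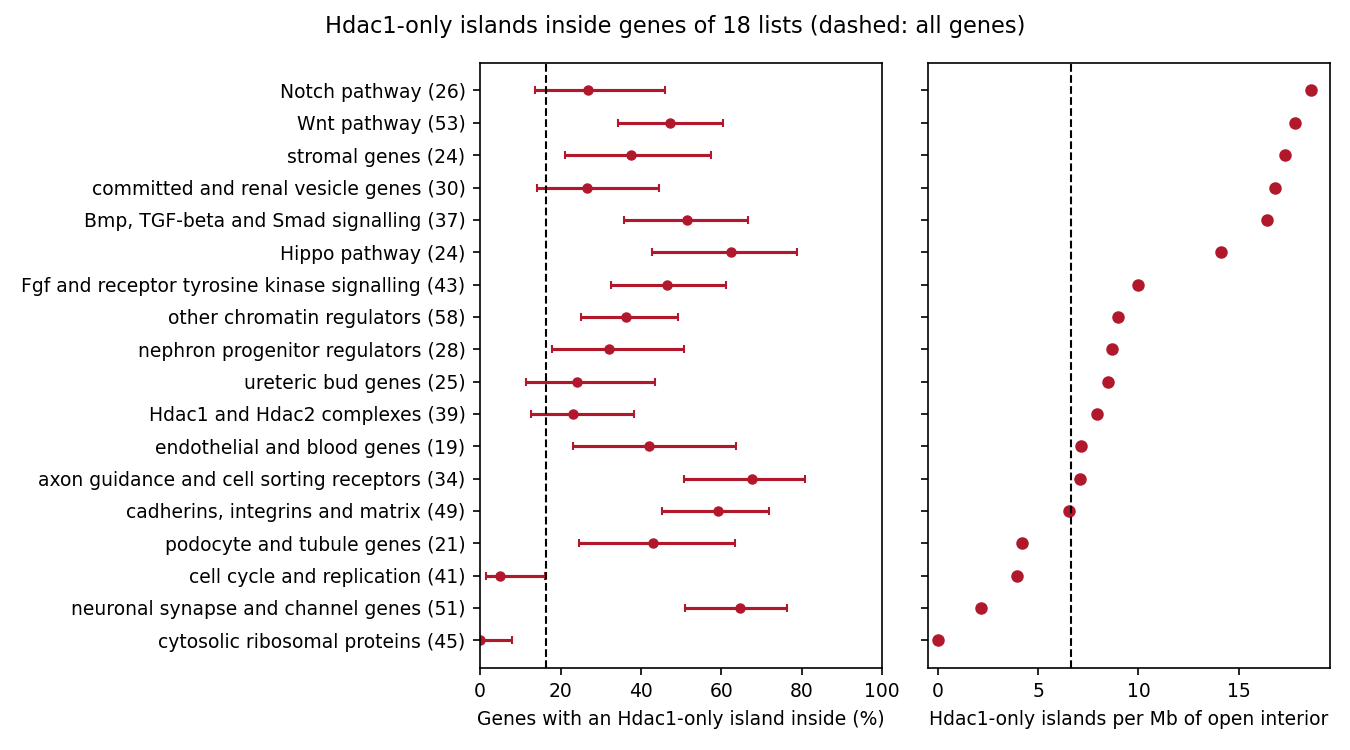
Left, percentage of the genes of each list with an Hdac1-only inner island, with 95% Wilson intervals. Right, islands per Mb of open interior. Lists are ordered by density, numbers in brackets are genes on chromosomes 1 to 19, and dashed lines give all protein-coding genes (16.47% and 6.66 per Mb). Notch, Wnt and stromal genes have the highest densities, and ribosomal protein genes have no island. Some genes are counted in several lists.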

How the data were processed

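The deposited files are 1 island list per antibody, each island with a position and a value computed by the authors. The value is read as a p-value, although a q-value cannot be told apart, and all lie below 0.1. Build mm10 and SICER, bedtools 2.17, SAMtools 1.3.1, BWA 0.7.5a and FastQC are named in the submitters' processing notes. SICER joins enriched windows of 200 bp steps into islands, so edges are coarse. Not given in the sources used here are its version, settings and background library, or the depth. Per the labels, libraries came from 500 pg of DNA amplified for 12 cycles or more, so reads can be copies of the same molecule. The deposited positions count from 0, and those printed are 1-based.

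Gene spans and starts came from RefSeq on GRCm38.p6. The tables used have no exons, so exon and intron were not told apart. Strands and starts were known for 16456 of 20661 autosomal protein-coding genes and not for chromosome 18. Islands falling inside 2 or more genes counted for each. Of the protein-coding genes, 105 have coordinates before the first 3 Mb of a chromosome and held no island of the class. Shares have 95% Wilson intervals, and medians and quartiles are descriptive. The steps were tested on simulated islands and against bedtools 2.31.1 before use (matplotlib 3.10.9, scipy 1.17.1, pandas 2.3.3, numpy 2.4.6, Python 3.11.15).

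Named genes are those with the 15 strongest islands, the 10 genes with most islands, up to 5 genes of each list by value, the strongest islands over microRNA genes and those nearest the limits of the rule. Further list genes were named after their values were seen, and some genes that the rule names are not reported here. The islands, the 18 gene lists and the measures were chosen with earlier results of these data known.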

Additional observations from a re-analysis of the deposited data

How the results depend on the processing

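With the ends of every annotated gene excluded, 7.7% of islands covered an inner start. With end windows of 2 and 5 kb the median distance to a gene end was 27.7 and 33.6 kb, the gene had Hdac1 at an end for 80.6 and 81.7% of islands and Hdac2 for 55.7 and 58%, and with 5 kb 7.93% covered an inner start. The cut on Hdac1 strength moved most of these values. In the upper 50% of the Hdac1 list 1003 islands remained in 927 genes and 64 distinct list genes (240 in the full list). There, the median distance to a gene end was 13.5 kb and the median position along the gene 42.9%, the gene had Hdac1 at an end for 69.5% and Hdac2 for 39%, and 31.8% covered an inner start. With the upper 50% of the Hdac2 list the median width was 1.8 kb and 11.4% covered an inner start. Added after the results were seen, genes in the start table only gave 11.5%, and leaving out islands of 0.6 kb or less gave a median width of 1.8 kb. Of 180 counts per list and setting 160 stayed within 1.5 times, and 17 of the 20 others arose with the upper 50% of the Hdac1 list. The value behind each island depends on a read depth and background that are unknown, and an Hdac2 island below the authors' threshold would not be seen. No paired analysis was possible because each antibody has 1 library.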

Other observations

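Some strong Hdac1-only inner islands were very narrow. The 436 islands of 0.6 kb or less (7.06% of the class) had a median value of 1.56e-11. Of the 100 islands with the lowest values 6 were this narrow, a share close to that in the whole class. The strongest lay in Trappc9 (0.6 kb, 1.68e-91, chromosome 15 from 72689801 to 72690400), Celf4 (0.4 kb, 1.05e-89, chromosome 18), Dlgap4 (0.6 kb, 2.47e-69), Nsf (0.6 kb, 4.78e-57) and Znhit1 (0.4 kb, 4.97e-50). None of these covered a listed inner start, and chromosome 18 has none in the table. Whether they mark deacetylase binding was not tested.

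In the protocadherin α cluster on chromosome 18, where many first exons share the last ones, a 1.6 kb island (0.0105) from 37175401 to 37177000 lay inside the spans of 17 genes, from Pcdha1 to Pcdhac2 with 3 predicted genes. By chromosome, the density per Mb of open interior ran from 5.38 on chromosome 1 to 8.54 on chromosome 11.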
